A study of Mus musculus with 12 samples.

Results

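The members described here are the nuclear-encoded subunits of the mitochondrial respiratory chain. They were chosen by gene symbol alone: every probe set with 1 annotated symbol beginning Nduf followed by a, b, c, s or v and a digit, the symbols Sdha to Sdhd, and every symbol beginning Uqcr, Cox4 to Cox8 followed by a, b or c, or Atp5. The rule found 162 of 45101 probe sets, which measure 79 of 18193 named genes: 73 probe sets of 35 genes for complex I, 9 of 4 for complex II, 16 of 8 for complex III, 33 of 15 for complex IV and 31 of 17 for complex V. Of these genes 31 had 1 probe set and 48 had several, and probe sets of 1 gene share their target. Another 9 probe sets that list a subunit beside a second gene were left out.

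RNA of sorted spleen CD4 T cells from female MRL/Faslpr mice, a strain with lupus-like disease that carries the lpr mutation of the death receptor gene Fas in every group, was hybridised to 12 Affymetrix arrays. Cells of the gate TCRb+ CD4+ B220- were sorted into 4 populations with 3 arrays each. The CD44+ cells of mice aged 16 to 24 weeks gave CD62Lhi PSGL1hi, CD62Llo PSGL1hi and CD62Llo PSGL1lo cells, and mice aged 6 to 8 weeks gave naive CD62Lhi CD44lo cells, so population and age cannot be told apart in any comparison with naive cells. By their titles the arrays are technical replicates, and by the series' design text they come from 3 independent sorts, so each p-value covers the spread among these arrays and may be technical in part. For CD62Llo PSGL1hi cells the description field gives a different gate, CD62Lhi PSGL1lo, and the titles were followed. The comparisons ask where the CD44+ populations stand apart, among themselves and against naive cells.

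Complexes I to IV pass electrons from NADH and succinate to oxygen, all but complex II pump protons across the inner mitochondrial membrane, and complex V, the ATP synthase, lets the protons flow back to make ATP. Most subunits are encoded in the nucleus, and a few core subunits of every complex but complex II are encoded in mitochondrial DNA and are not among the members. Naive T cells draw on respiration, and T cells activated by antigen add glycolysis and enlarge their mitochondria. The transcription factors NRF1, the ETS factor GABP and YY1 are known regulators of nuclear respiratory genes.

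All 79 genes matched RefSeq by identifier, and 66 had a promoter sequence in the RefSeq table (build GRCm38.p6, 250 bases before to 50 bases after the start). On both strands, the NRF1 motif (GCGC, any base, TGCGC) was in the promoters of 15 of the 66 genes (22.7%) against 5.19% of 27025 genes of the table. The ETS motif CCGGAAG was in 17 (25.8%) against 9.93%, and the YY1 motif ATGGCGG in 9 (13.6%) against 4.69%. At least 1 of the 3 motifs was in 35 member promoters (53.0%) and in 17.3% of all, and none of the 3 motifs contains another. NRF1 motifs were in 5 of 31 promoters of complex I and in 6 of 15 of complex V, and YY1 motifs in 7 of 31 of complex I. A match is a run of letters, not a shown binding site. Printed 5′ to 3′ along the gene's strand are the promoters of 5 genes named in the results, with motifs in capitals. They are NRF1 in Atp5g2, YY1 in Ndufs4, NRF1 and then YY1 in Ndufa5, ETS at 2 places in Ndufs3 and ETS in Ndufs8. All printed promoters have a motif, while Cox7a2l, Cox8b, Ndufa10, Ndufa12, Ndufb1, Ndufc1, Ndufv1 and Ndufv2, also named below, had none of the 3. Ndufa5 has a second listed start whose window is not printed.
Atp5g2 promoter, chr15:102670998-102671297, minus strand: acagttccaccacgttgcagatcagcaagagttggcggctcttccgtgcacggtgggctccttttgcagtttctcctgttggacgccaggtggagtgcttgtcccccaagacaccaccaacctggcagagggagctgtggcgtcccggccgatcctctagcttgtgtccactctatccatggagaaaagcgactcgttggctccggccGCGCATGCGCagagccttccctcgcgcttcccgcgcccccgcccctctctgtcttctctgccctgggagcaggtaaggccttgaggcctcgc
Ndufs4 promoter, chr13:114388045-114388344, minus strand: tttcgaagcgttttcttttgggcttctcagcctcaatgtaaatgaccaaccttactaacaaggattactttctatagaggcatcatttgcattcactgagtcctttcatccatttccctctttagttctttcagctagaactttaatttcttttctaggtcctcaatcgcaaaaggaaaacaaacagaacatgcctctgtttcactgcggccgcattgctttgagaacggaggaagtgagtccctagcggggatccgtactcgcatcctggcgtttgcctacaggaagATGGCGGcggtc
Ndufa5 promoter, chr6:24527477-24527776, minus strand: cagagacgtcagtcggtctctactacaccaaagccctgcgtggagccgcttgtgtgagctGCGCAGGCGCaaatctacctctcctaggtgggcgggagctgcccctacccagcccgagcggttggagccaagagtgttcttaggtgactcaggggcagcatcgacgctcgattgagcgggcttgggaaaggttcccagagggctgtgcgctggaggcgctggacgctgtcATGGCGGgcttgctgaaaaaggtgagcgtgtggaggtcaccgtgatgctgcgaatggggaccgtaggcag
Ndufs3 promoter, chr2:90904672-90904971, minus strand: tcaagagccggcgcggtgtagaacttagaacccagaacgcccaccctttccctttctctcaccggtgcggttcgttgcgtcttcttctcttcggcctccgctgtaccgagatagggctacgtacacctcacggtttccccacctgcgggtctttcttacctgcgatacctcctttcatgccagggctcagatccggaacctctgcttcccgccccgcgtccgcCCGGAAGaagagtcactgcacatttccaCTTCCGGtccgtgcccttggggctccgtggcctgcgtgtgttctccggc
Ndufs8 promoter, chr19:3912725-3913024, minus strand: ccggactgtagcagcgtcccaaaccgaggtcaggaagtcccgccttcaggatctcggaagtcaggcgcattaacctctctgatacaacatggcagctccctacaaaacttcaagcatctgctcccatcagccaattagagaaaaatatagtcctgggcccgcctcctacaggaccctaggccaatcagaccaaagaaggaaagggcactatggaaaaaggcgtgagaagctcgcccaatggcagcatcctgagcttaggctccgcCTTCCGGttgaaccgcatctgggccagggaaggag

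With all 12 arrays few members differed among the populations, and most of those that did were lower in CD44+ cells than in naive cells. The first statement rests on 1 array, CD62Llo PSGL1lo replicate 2: without it the F test called 42 members (25.9%, against 25.8% of all probe sets). The second rests on it for CD62Llo PSGL1lo cells, where 36 were then higher and 8 lower than in naive cells (27.2%, against 20.2% of all). Directions of the PSGL1hi calls against naive cells without that array are not given here. The 7 calls that held under every other setting and without any single array were all lower. Every deposited value is a ratio in which 1 is the middle level of that probe set among the 12 arrays, so it says nothing of how abundant the RNA is, and levels of different probe sets are not compared. Differences are given on the log2 scale with the standard error of the fit, and a member was called where limma's adjusted p (Benjamini-Hochberg over 45037 probe sets) was under 0.05. The F test over the 4 populations called 8 of 162 members (4.94%), against 23.7% of all probe sets. They were 3 probe sets of complex I, 4 of complex IV, 1 of complex V and none of complexes II and III, where 1 probe set each had an unadjusted p under 0.05. Over the 6 pairwise comparisons there were 23 calls in 15 probe sets of 11 genes, 19 of them lower and 4 higher, and 22 of the 23 were against naive cells. In bulk RNA of this kind fewer cells of a type and less RNA per cell cannot be told apart.

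One array stood apart for these genes before any comparison. In CD62Llo PSGL1lo replicate 2 the median log2 ratio of the members was -0.28, against 0.12 and 0.20 in the other arrays of that population. In that array 100 of the 162 members (61.7%) lay below -0.2, against 24.8% of all probe sets, and 88 members (54.3%) had their lowest value of the 12 arrays there, against 18.7% of all probe sets. In CD62Llo PSGL1lo replicate 3, in contrast, 75 members (46.3%) had their highest value, against 8.3% of all. The median SD of a member among the 3 CD62Llo PSGL1lo arrays was 0.303, and 0.0933 without replicate 2, while in the other populations it lay between 0.0899 and 0.128. Results on CD62Llo PSGL1lo cells include this array unless stated, and many but not all are also given without it.

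Every complex had a median below 0 in that array. It was -0.24 for complex I, -0.09 for complex II, -0.27 for complex III, -0.41 for complex IV and -0.37 for complex V. In replicate 3 of the same population the medians were 0.30, 0.15, 0.15, 0.05 and 0.16 in that order. Elsewhere the array medians were near 0: they ran from -0.07 to 0.03 for the members in the 6 arrays of the PSGL1hi populations and from -0.13 to 0.07 in naive arrays. The plot of array medians by complex shows the gap between CD62Llo PSGL1lo replicate 2 and every other array for complexes I, III, IV and V.

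**Figure D1:**
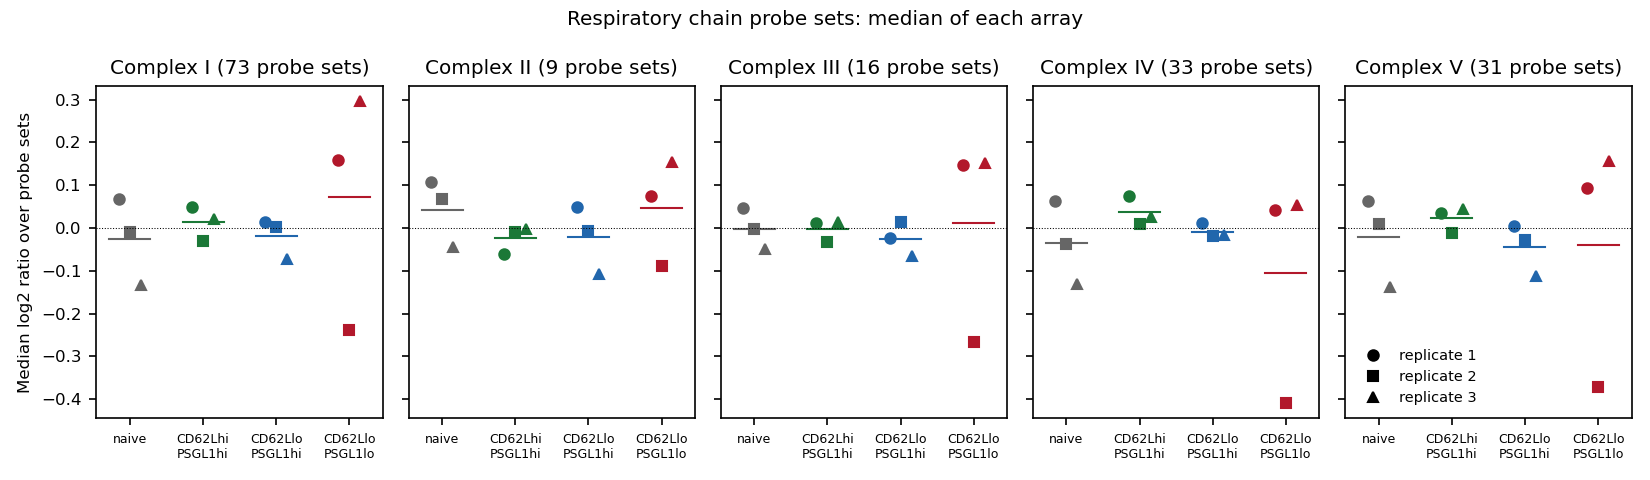
Median log2 ratio over the probe sets of each respiratory complex (y axis) on each of 12 arrays, by population (x axis). Symbols are the 3 replicates and lines the mean of the 3 array medians. CD62Llo PSGL1lo replicate 2 has the lowest median in complexes I, III, IV and V (-0.24, -0.27, -0.41 and -0.37), and replicate 3 has the highest in complex I at 0.30.

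Between the CD44+ populations few subunits were called with all arrays, and more were without CD62Llo PSGL1lo replicate 2: 16 against CD62Llo PSGL1hi cells and 12 against CD62Lhi PSGL1hi cells, all higher in CD62Llo PSGL1lo cells (against 8.95% and 11.7% of all probe sets). In CD62Llo PSGL1lo against CD62Llo PSGL1hi cells 1 of 162 members was called (0.617%), against 8.38% of all probe sets (3.41% higher and 4.97% lower), and the median difference over the members was 0.030 (0.0025 over all probe sets). That member was a probe set of Ndufa10, an accessory subunit of complex I. In CD62Llo PSGL1hi against CD62Lhi PSGL1hi cells limma called none, against 1.23% of all probe sets, 2 members had an unadjusted p under 0.05, and the median was -0.040. In CD62Llo PSGL1lo against CD62Lhi PSGL1hi cells limma called none, against 11.6% of all probe sets (5.37% higher and 6.27% lower), although 20 members, 10 higher and 10 lower, had an unadjusted p under 0.05. The median there was 0.0019.

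With all arrays, CD62Llo PSGL1lo replicate 2 included, and 1 spread pooled over the populations, the intervals of the fit were as follows. The 95% interval of the difference stayed within 0.5 on the log2 scale, a 1.41-fold change, for 117 of the 162 members in the first of these comparisons, 129 in the second and 121 in the third. These were 72.2%, 79.6% and 74.7% of the members, against 71.5%, 78.6% and 69% of all probe sets. The interval stayed within 1, in either direction, for all 162 in each, against 94.3%, 97.4% and 92.4% of all probe sets. Smaller differences were not resolved, with a median standard error of 0.14 over the members and 0.12 over all probe sets. The median SD of a member was 0.303 among CD62Llo PSGL1lo arrays and 0.0899 to 0.128 in the other populations. With 1 pooled spread the intervals can be too narrow for CD62Llo PSGL1lo cells and too wide between the PSGL1hi populations. Arrays with the same replicate number deviated together among the CD44+ populations. With that number as a block in these 9 arrays the counts were 2, 0 and 5 members, against 10.6%, 2.42% and 14.8% of all probe sets. In the first 1 was higher and 1 lower (4.32% and 6.31% of all), and in the third 3 were higher and 2 lower (7.28% and 7.55% of all).

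Ndufa10 had 2 probe sets that did not move alike. For probe set 1418068_at the ratios were 0.869, 0.793 and 0.872 in CD62Llo PSGL1lo cells and 1.09, 1.04 and 1.13 in CD62Llo PSGL1hi cells. They were 1.04, 1.03 and 0.970 in CD62Lhi PSGL1hi cells and 1.12, 0.904 and 0.961 in naive cells. All 3 CD62Llo PSGL1lo arrays lay below the other 9, and the difference from CD62Llo PSGL1hi cells was -0.37 ± 0.10 (limma, adjusted p = 0.0315). Without CD62Llo PSGL1lo replicate 2 it was -0.32 and missed the threshold, with an adjusted p of 0.0882. It was also lost without any other single array of the 2 populations, where the adjusted p reached 0.115, and with only these populations in the fit (0.0643). Its other probe set, 1448934_at, differed by -0.17 (adjusted p = 0.557) in the same comparison.

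The block brought in 4 genes. Ndufa12, an accessory subunit of complex I, was higher in CD62Llo PSGL1lo than in CD62Lhi PSGL1hi cells by 0.48 ± 0.14 in 1418814_s_at and by 0.42 ± 0.12 in 1425919_at (limma with the block, adjusted p = 0.0411 and 0.0251), and the second was also higher than in CD62Llo PSGL1hi cells by 0.48 ± 0.12 (adjusted p = 0.0158). Sdha, the catalytic flavoprotein of complex II, was higher by 0.39 ± 0.12 in 1426688_at (adjusted p = 0.0468). Cox5a, a structural subunit of complex IV, was lower by -0.49 ± 0.13 in 1415933_a_at (adjusted p = 0.0221), and Ndufb1 of complex I by -0.48 ± 0.13 (adjusted p = 0.025). The other probe sets of Ndufa12, Sdha and Cox5a were not called with the block. Without the block the 5 adjusted p-values against CD62Lhi PSGL1hi cells were 0.0801, 0.0953, 0.0705, 0.0667 and 0.127, for both Ndufa12 probe sets, Sdha, Cox5a and Ndufb1 in this order. Without CD62Llo PSGL1lo replicate 2, and with no block, the 5 differences were 0.69, 0.30, 0.47, -0.29 and -0.26, of which the first and the Sdha difference were called (adjusted p = 0.00321 and 0.0469).

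Against naive cells 1 member was higher and 6 were lower in CD62Lhi PSGL1hi cells (4.32%), against 17.3% of all probe sets (8.6% higher and 8.66% lower). In CD62Llo PSGL1hi cells none was higher and 5 were lower (3.09%), against 17.3% of all (9.1% higher and 8.16% lower). In CD62Llo PSGL1lo cells 3 were higher and 7 lower (6.17%), against 20.1% of all (9.53% higher and 10.6% lower). The median difference of the members was 0.029, -0.0092 and 0.020 in this order, while that of all probe sets was -0.046, -0.054 and -0.052. The share of called members was below the share of all probe sets in all 3, as the plot of shares shows. Without CD62Llo PSGL1lo replicate 2 the order changed in the last of them, as described further on.

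With all arrays, the groups separated for members about as often as, or less often than, for all probe sets. The 3 comparisons of CD62Llo PSGL1lo cells include replicate 2, in which 54.3% of members had their lowest value. Separation without that array was not computed. Against naive cells the 3 arrays of each group did not overlap for 48 members in CD62Lhi PSGL1hi cells (29.6%, against 33.2% of all probe sets), 45 in CD62Llo PSGL1hi cells (27.8%, against 39.1%) and 20 in CD62Llo PSGL1lo cells (12.3%, against 34.1%). Among the CD44+ populations they did not overlap for 9 members between CD62Llo PSGL1lo and CD62Llo PSGL1hi cells (5.56%, against 21% of all), 20 between the PSGL1hi populations (12.3%, against 14.3%) and 11 between CD62Llo PSGL1lo and CD62Lhi PSGL1hi cells (6.79%, against 21%). Of 48 genes with several probe sets, all probe sets differed in 1 direction from naive cells in 23, 24 and 24 genes for CD62Lhi PSGL1hi, CD62Llo PSGL1hi and CD62Llo PSGL1lo cells, so probe sets of 1 gene often went apart.

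**Figure D2:**
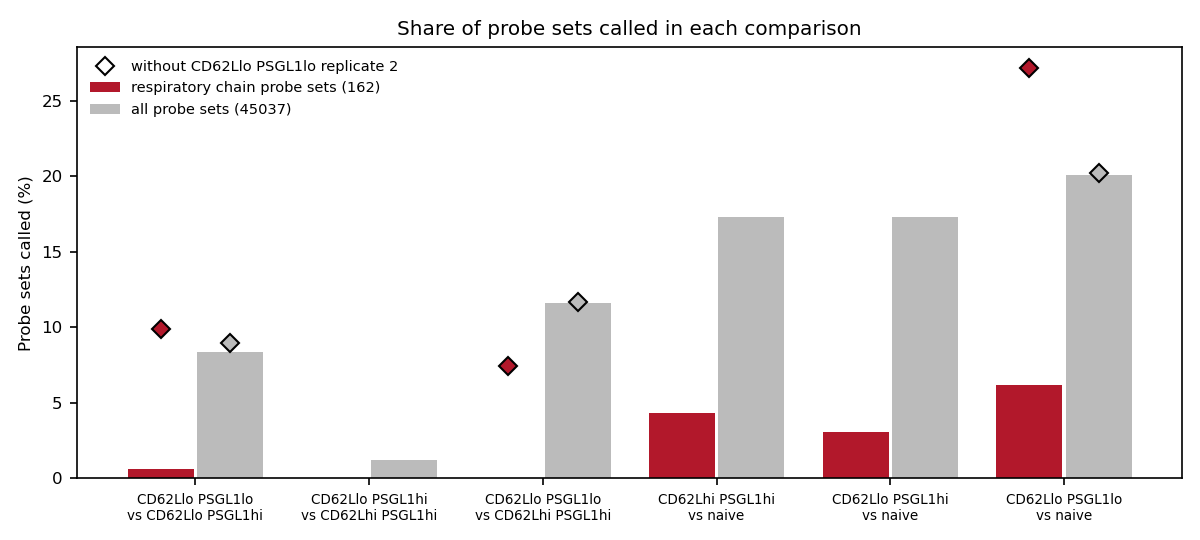
Percent of probe sets called at an adjusted p under 0.05 (y axis) in each pairwise comparison (x axis), for 162 respiratory chain probe sets (red bars) and all 45037 (grey bars). Diamonds give the same shares without CD62Llo PSGL1lo replicate 2 for the 3 comparisons of that population, where the members' share becomes 9.88%, 7.41% and 27.2%.

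The largest single difference was in complex V. Atp5g2 encodes subunit c, the proton-carrying ring of the ATP synthase, which 3 genes encode with the same mature protein. Its probe set 1456128_at had ratios of 1.70, 1.53 and 1.38 in naive cells. In CD62Lhi PSGL1hi cells they were 0.921, 0.992 and 0.775, in CD62Llo PSGL1hi cells 0.877, 1.13 and 0.936, and in CD62Llo PSGL1lo cells 1.01, 1.09 and 0.856. Every naive array lay above every CD44+ array. It fell by 0.78 ± 0.13, 0.65 ± 0.13 and 0.64 ± 0.13 in this order (limma, adjusted p = 8.48e-04, 0.00335 and 0.00299), and stayed called under every alternative run.

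The other probe sets of the subunit c genes did not follow. Atp5g2 1415980_at, the one of the 3 with a curated RefSeq target, had ratios of 1.05, 0.997 and 0.846 in naive cells and of 1.24, 0.815 and 1.70 in CD62Llo PSGL1lo cells. These overlap, and its difference was 0.32 ± 0.22 (adjusted p = 0.378). Atp5g2 1447714_x_at differed by at most 0.13 from naive cells in any population. With all arrays Atp5g1, the second gene of subunit c, ranged from -0.25 to 0.15 over its 2 probe sets against naive cells. Atp5g3, the third, ranged from -0.01 to 0.09. No other subunit c probe set was called in this fit, so the decrease rests on 1 of 6. Without CD62Llo PSGL1lo replicate 2 that population differed by -0.08 to 0.42 in Atp5g1 and by 0.15 in Atp5g3, with no call.

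Cox7a2l, also called SCAF1, joins complexes III and IV into supercomplexes, and was the only gene with 3 probe sets that were all called in a comparison with all arrays. For 1421772_a_at, which has a curated target, the ratios were 1.20, 1.23 and 1.15 in naive cells and 0.941, 0.701 and 0.918 in CD62Llo PSGL1lo cells. The PSGL1hi populations lay between, at 1.10, 0.968 and 0.961 in CD62Lhi and 1.04, 1.03 and 0.941 in CD62Llo cells. The groups of naive and CD62Llo PSGL1lo arrays did not overlap, and the gene fell by 0.49 ± 0.12, 0.51 ± 0.12 and 0.52 ± 0.13 in its 3 probe sets (limma, adjusted p = 0.00657, 0.00631 and 0.0123). Without replicate 2, which had the lowest of the CD62Llo PSGL1lo ratios at 0.701, 0.695 and 0.700, the differences were -0.36, -0.36 and -0.34 and stayed called (adjusted p = 0.0206, 0.0151 and 0.0327). Without naive replicate 1 the last missed the threshold (0.0624). In the PSGL1hi populations the 3 probe sets differed from naive cells by -0.37 to -0.24 with adjusted p from 0.0785 upward.

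Its paralogs Cox7a1 and Cox7a2, the muscle and the general form of a complex IV subunit, gave no calls in any comparison. With all arrays their probe sets ranged from -0.06 to 0.18 against naive cells. Without CD62Llo PSGL1lo replicate 2 that population differed from naive cells by 0.02 in Cox7a1 and by 0.20 to 0.26 in Cox7a2, with no call. Cox8b, a muscle form of another small complex IV subunit, had ratios of 1.29, 1.35 and 1.11 in naive cells, 0.969, 0.871 and 0.974 in CD62Llo PSGL1hi cells and 0.920, 1.07 and 0.944 in CD62Llo PSGL1lo cells. It fell by 0.41 ± 0.11 and 0.35 ± 0.11 from naive cells to these populations (limma, adjusted p = 0.0145 and 0.0305) without overlap. Its ratios of 1.13, 1.03 and 0.974 in CD62Lhi PSGL1hi cells reached the naive range (-0.26, adjusted p = 0.123). Against CD62Llo PSGL1hi cells the call was lost without replicate 2 of that population or naive replicate 1 or 2, and against CD62Llo PSGL1lo cells without its replicate 1 or 3 or naive replicate 1 or 2, with adjusted p up to 0.0754 and 0.131. The latter call was also lost with scaling by the array median (0.0525), quantile normalization (0.125) and only these populations in the fit (0.0651). With all arrays Cox8a, the general form, and Cox8c gave no calls, and Cox6a1, Cox6a2, Cox6b1 and Cox6b2, general and tissue forms of further complex IV subunits, gave none either. Ratios carry no brightness, so whether muscle forms are expressed in these cells cannot be read from them.

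In complex I several calls lay in 1 probe set of a gene whose others were not called. Ndufa10 1448934_at had ratios of 1.39, 1.40 and 1.20 in naive cells, 0.894, 0.963 and 1.01 in CD62Lhi PSGL1hi, 0.992, 1.02 and 0.967 in CD62Llo PSGL1hi and 0.924, 0.738 and 1.01 in CD62Llo PSGL1lo cells. All naive arrays were above all others, and it fell by 0.47 ± 0.12, 0.42 ± 0.12 and 0.58 ± 0.12 (limma, adjusted p = 0.0112, 0.0245 and 0.00226). Its other probe set, 1418068_at, differed from naive cells by 0.03, 0.14 and -0.23 and was not called. Both carry a curated RefSeq target. The call in CD62Lhi PSGL1hi cells was lost without naive replicate 2 (adjusted p = 0.0552), and that in CD62Llo PSGL1hi cells without any array of that population or naive replicate 1 or 2 (up to 0.0997). In CD62Llo PSGL1lo cells it held under every alternative run.

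Ndufs4, an accessory subunit needed for a stable complex I, showed the same split. In 1459760_at the ratios were 1.43, 1.15 and 1.19 in naive cells, 0.951, 1.02 and 1.02 in CD62Lhi PSGL1hi, 0.983, 1.04 and 0.933 in CD62Llo PSGL1hi and 0.862, 0.802 and 0.769 in CD62Llo PSGL1lo cells. The 3 CD62Llo PSGL1lo arrays were the lowest of the 12. It fell by 0.33 ± 0.10, 0.34 ± 0.10 and 0.62 ± 0.10 against naive cells (limma, adjusted p = 0.041, 0.0324 and 4.08e-04). The last held under every alternative run, and the others were lost under 11 and 5 of 20 alternatives, among them the fits without naive replicate 1 or 3 (adjusted p up to 0.179 and 0.139). Its 3 other probe sets, 2 of them with a curated target that the called one lacks, ranged from -0.20 to 0.16 and were not called.

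Ndufa4l2, a paralog of Ndufa4 with no other probe set, had ratios of 1.14, 1.21 and 1.33 in naive cells against 0.994, 0.957 and 1.01 in CD62Lhi PSGL1hi and 0.981, 0.866 and 0.925 in CD62Llo PSGL1hi cells. It fell by 0.31 ± 0.10 and 0.41 ± 0.10 (limma, adjusted p = 0.0418 and 0.00952), and its ratios of 0.956, 1.13 and 1.06 in CD62Llo PSGL1lo cells gave -0.23 (adjusted p = 0.136). The second call was lost without naive replicate 3 (0.0541) and the first under 10 of 21 alternatives (up to 0.173). Ndufa4 itself, counted with complex I here by its symbol although it is now placed in complex IV, was not called. With all arrays it differed from naive cells by 0.16 and 0.08 in the PSGL1hi populations, and CD62Llo PSGL1lo and naive means were level. Without CD62Llo PSGL1lo replicate 2 the difference of that population from naive cells was 0.18, also not called. Against naive cells CD62Lhi PSGL1hi cells were also lower in Ndufb2 1442658_at by -0.34 and in Sdha 1433293_at by -0.54 (limma, adjusted p = 0.045 and 0.0269). The Sdha arrays overlapped, at 1.28, 1.26 and 0.987 in naive against 0.619, 0.989 and 0.843 in CD62Lhi PSGL1hi cells, and the call was lost without replicate 1 of the latter or naive replicate 1 or 2 (adjusted p up to 0.121), after quantile normalization (0.106) and with only these populations in the fit (0.0536). The Ndufb2 call was lost under 11 of 21 alternatives (up to 0.18), and its other probe sets differed by -0.01 and 0.06.

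The calls that were higher than in naive cells were all in complex I. Ndufb1, a small membrane subunit, had ratios of 1.26, 1.07 and 1.57 in CD62Lhi PSGL1hi cells against 0.848, 0.893 and 0.864 in naive cells and rose by 0.56 ± 0.18 (limma, adjusted p = 0.0471). That call was lost without 7 of the 12 arrays, one at a time, and after quantile normalization (up to 0.171). Ndufa12 rose in CD62Llo PSGL1lo cells by 0.47 ± 0.15 in 1455806_x_at and by 0.41 ± 0.13 in 1433513_x_at (limma, adjusted p = 0.0345 and 0.0353). In the first its ratios were 1.33, 0.976 and 1.30 against 0.902, 0.870 and 0.809 in naive cells. Its other probe sets were at 0.44 and 0.36 (adjusted p = 0.0774 and 0.118), and both calls were lost without CD62Llo PSGL1lo replicate 1 or 3 or any naive array (up to 0.141). Quantile normalization also ended the first call and the 2-population fit the second. Ndufv2, which holds an iron-sulfur cluster of the NADH-binding module, rose by 0.41 ± 0.14 in 1452692_a_at (limma, adjusted p = 0.0466), from 0.884, 0.836 and 0.795 to 1.18, 0.866 and 1.36. Here replicate 2 of CD62Llo PSGL1lo cells, at 0.866, lay inside the naive range. The call held under 7 of 19 alternatives, with adjusted p up to 0.205 in the rest, and the other probe sets of the gene were at 0.38 and 0.27. The suffixes x, s and a mark probe sets that may bind several transcripts.

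**Figure D3:**
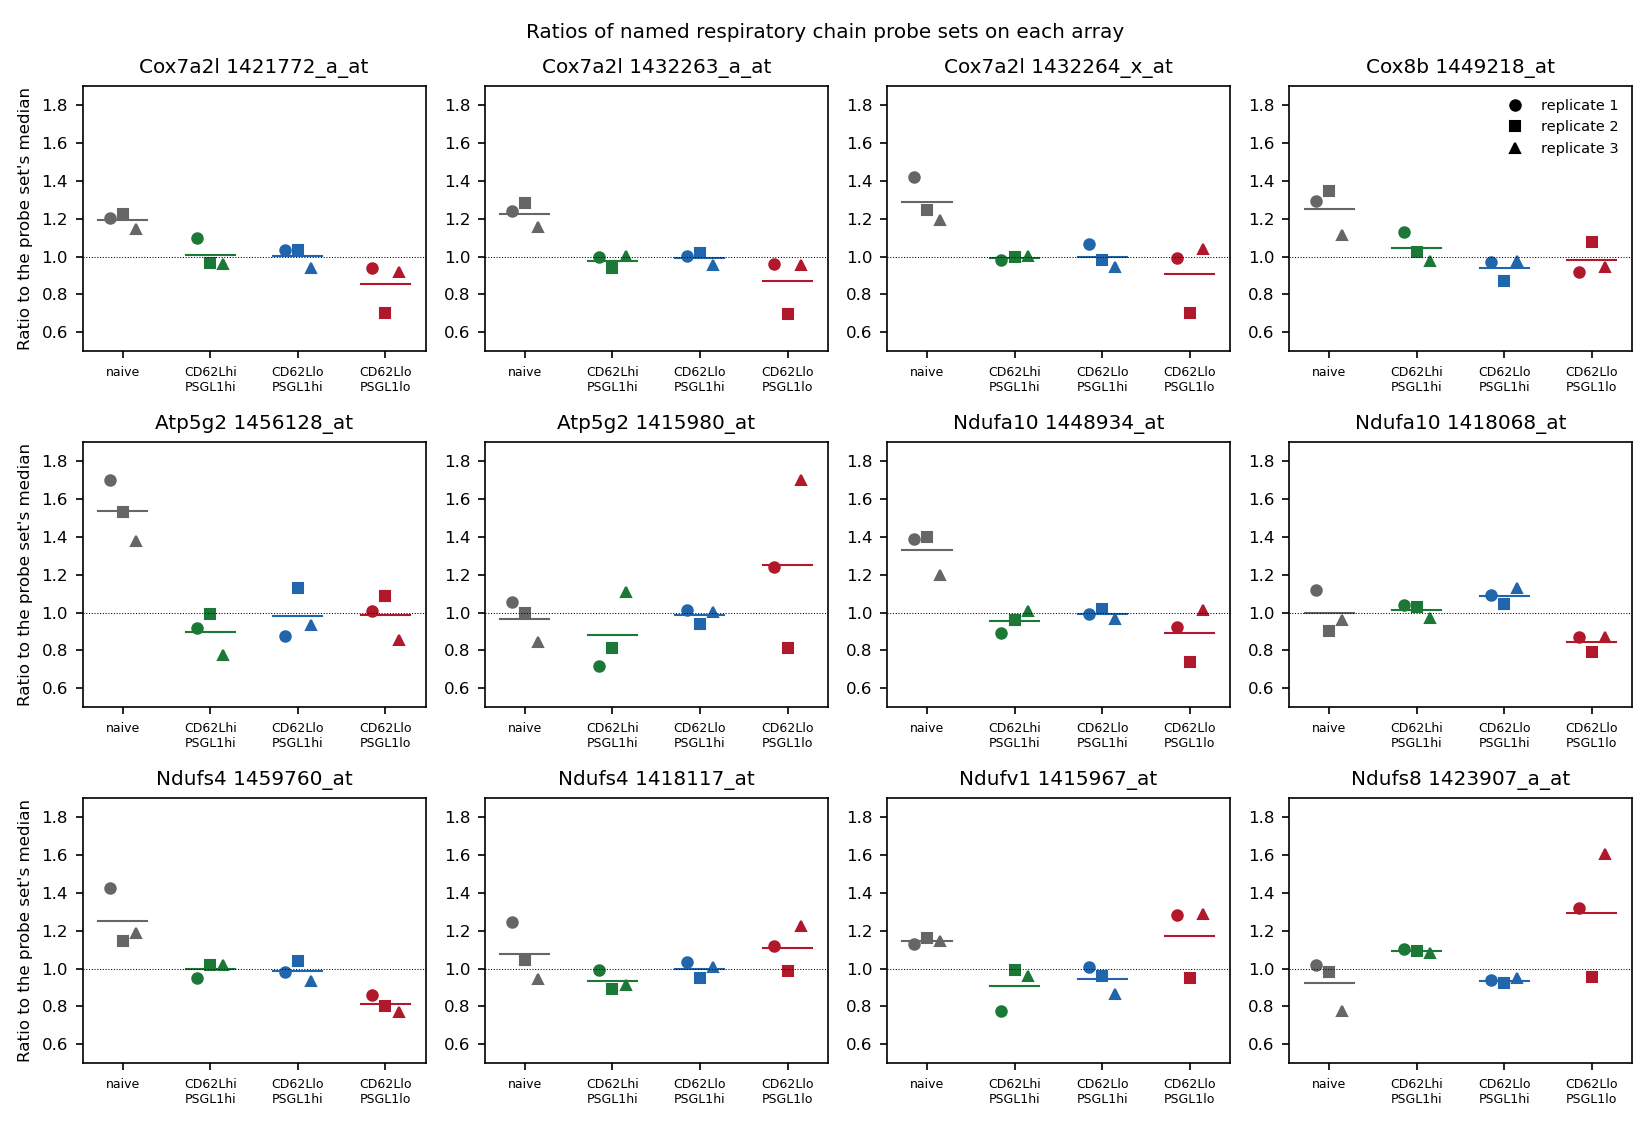
Ratio to the probe set's own median (y axis) on each of 12 arrays, by population (x axis), for 12 probe sets of 7 genes. Symbols are the 3 replicates and lines the mean. In Cox7a2l all 3 probe sets are lowest in CD62Llo PSGL1lo replicate 2 (0.701, 0.695 and 0.700), and the paired panels of Atp5g2, Ndufa10 and Ndufs4 show, for each gene, a probe set called against naive cells beside one that was not.

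Among the core subunits few calls were made. Of the 6 core complex I genes measured, Ndufs1, Ndufs3, Ndufs7, Ndufs8, Ndufv1 and Ndufv2, which carry electrons from NADH to ubiquinone, the Ndufv2 probe set was the only call with all arrays. Ndufs8, which binds iron-sulfur clusters, came near in 1423907_a_at, at 0.46 ± 0.16 against naive cells (adjusted p = 0.0537). In complex II the Sdh genes, which also serve the tricarboxylic acid cycle, gave the call of Sdha 1433293_at in CD62Lhi PSGL1hi cells and no other with all arrays and no block. Its 3 other probe sets differed there by -0.20 to -0.02. In complex III the core proteins Uqcrc1 and Uqcrc2 gave none, and the Rieske iron-sulfur protein Uqcrfs1 was at -0.40 ± 0.14 in CD62Llo PSGL1lo against naive cells (adjusted p = 0.0534), or -0.23 without CD62Llo PSGL1lo replicate 2 (0.19). In complex V the catalytic subunits were close to naive cells in CD62Llo PSGL1lo cells with all arrays. Atp5a1 was at -0.05 to 0.08 over 3 probe sets, and Atp5b had ratios of 1.16, 0.853 and 1.15 against 1.11, 1.05 and 0.976 in naive cells. Without CD62Llo PSGL1lo replicate 2 the differences were 0.07 to 0.19 for Atp5a1 and 0.14 for Atp5b, with no call.

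Leaving out CD62Llo PSGL1lo replicate 2 changed the counts for this population more than any other choice. Against naive cells 36 members were then higher and 8 lower (27.2%), against 20.2% of all probe sets (11% higher and 9.19% lower), and the median difference was 0.18. Against CD62Llo PSGL1hi cells 16 were higher and none lower (9.88%), against 8.95% of all (4.48% higher and 4.46% lower), with a median of 0.19. Against CD62Lhi PSGL1hi cells 12 were higher and none lower (7.41%), against 11.7% of all (6.39% higher and 5.28% lower), with a median of 0.14. The F test called 42 members (25.9%), against 25.8% of all probe sets. The population then rests on 2 arrays, and the array was set aside after its values were seen.

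Counts also rose in comparisons without this population, since all populations share 1 estimate of the spread, and the median standard error of the members fell to 0.119 in comparisons with it. CD62Lhi PSGL1hi against naive cells went from 7 to 22 members, against 19.7% of all probe sets, and CD62Llo PSGL1hi against naive cells from 5 to 12, against 20.2%.

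Most of the added calls were in complex I. Against CD62Llo PSGL1hi cells 13 of the 16 were complex I probe sets of 8 genes, and the other 3 were complex V. Ndufv1, which binds NADH and takes the first electrons, was called in all 3 of its probe sets, at 0.42 to 0.45. For 1415967_at the ratios were 1.28, 0.951 and 1.29 in CD62Llo PSGL1lo cells against 1.01, 0.961 and 0.867 in CD62Llo PSGL1hi cells and 0.777, 0.993 and 0.961 in CD62Lhi PSGL1hi cells. Replicates 1 and 3 lay above all 6 arrays of the other CD44+ populations and replicate 2 lay among them. With all arrays the differences were 0.30 and 0.36 (limma, adjusted p = 0.231 and 0.102). Naive cells, at 1.13, 1.16 and 1.15, lay between, and Ndufv1 was not called against them with or without the array.

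Ndufs8 had 3 of 6 probe sets called against CD62Llo PSGL1hi cells without the array, at 0.44 to 0.63, and 5 of 6 against naive cells, at 0.38 to 0.66. In 1423907_a_at the CD62Llo PSGL1lo ratios were 1.32, 0.955 and 1.60 against 0.938, 0.922 and 0.948 in CD62Llo PSGL1hi and 1.02, 0.980 and 0.774 in naive cells. The sixth, 1434212_at, was at -0.04 and -0.15. Ndufs3, with its pair of ETS motifs, had 1 probe set and ratios of 1.27, 0.859 and 1.28 against 1.01, 1.01 and 0.832 in CD62Llo PSGL1hi cells, a difference of 0.43 (adjusted p = 0.0443). Ndufa5, an accessory subunit of the arm that takes up NADH, was called in 1417286_at against every other population, at 0.46 against CD62Llo PSGL1hi, 0.57 against CD62Lhi PSGL1hi and 0.62 against naive cells. Ndufc1 was called in 1416285_at against each as well, at 0.48, 0.46 and 0.41.

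In complex V the calls against CD62Llo PSGL1hi cells were Atp5g1 1416020_a_at at 0.61, Atp5e at 0.41 and Atp5o 1416278_a_at at 0.39. The other probe sets of Atp5g1 and Atp5o, at -0.05 and 0.19, were not called. Atp5e and Atp5o encode the epsilon subunit and the subunit that ties the catalytic head to the stalk. Atp5g2 was split further: 1415980_at was called higher than naive cells at 0.59, and 1456128_at lower at -0.72, in the same fit. In complex IV no probe set was called against a CD44+ population. Against naive cells 6 were higher, 4 of the 6 probe sets of Cox5b at 0.38 to 0.54 and both of Cox6b1 at 0.32 and 0.44, and 4 were lower, the 3 of Cox7a2l and Cox8b. For Cox5b 1454716_x_at the ratios were 1.17, 0.707 and 1.28 in CD62Llo PSGL1lo cells against 0.880, 0.832 and 0.822 in naive cells. The plot of differences by complex sets both fits side by side.

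**Figure D4:**
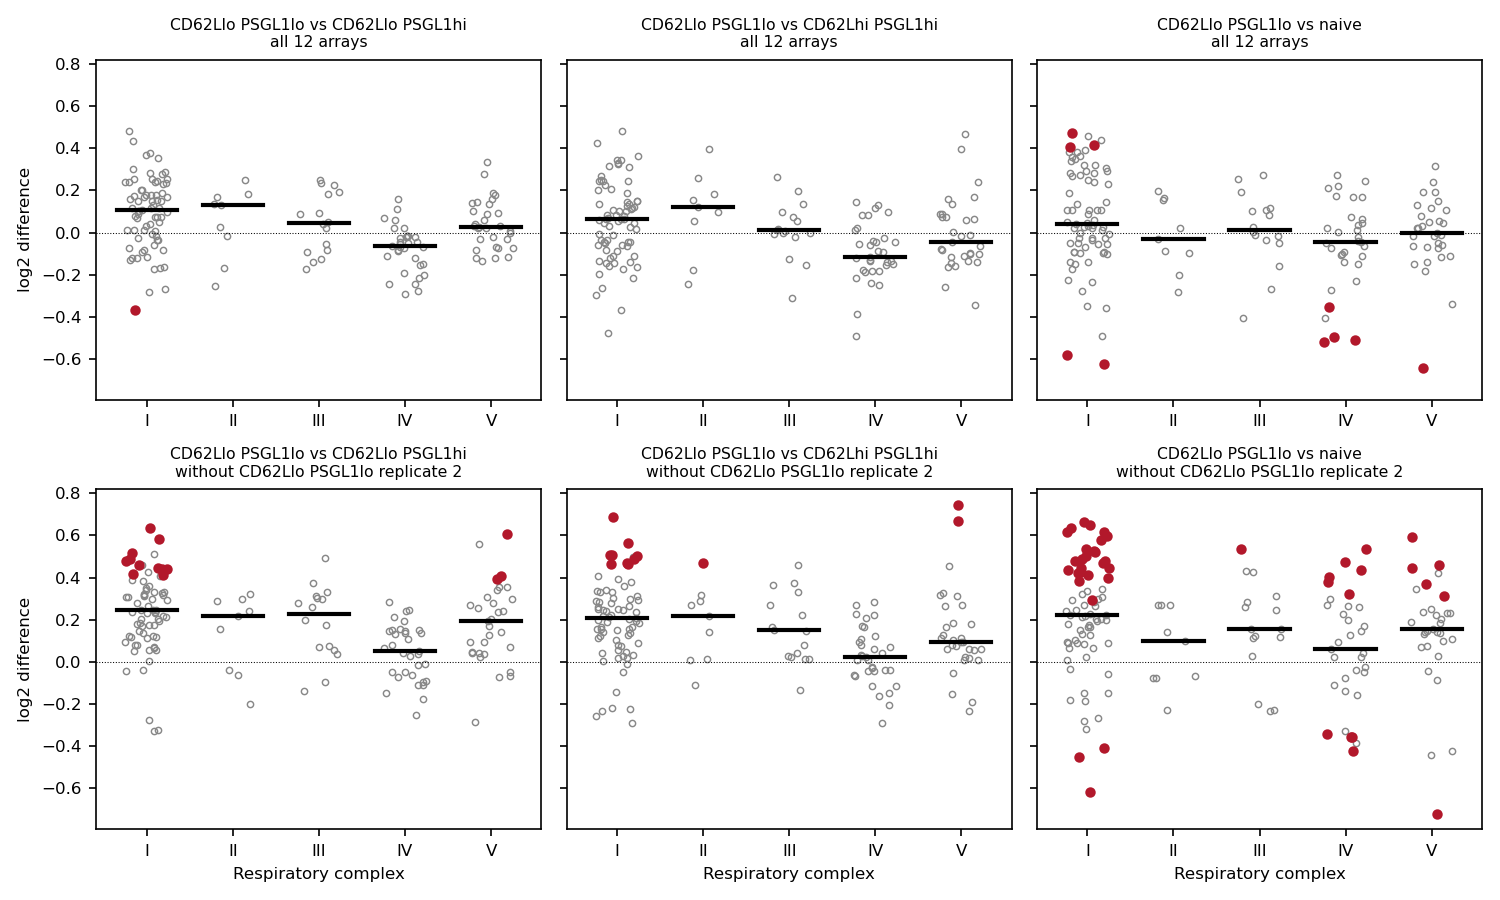
Log2 difference of each of 162 respiratory chain probe sets (y axis) by complex (x axis), for CD62Llo PSGL1lo cells against each other population, with all 12 arrays (top) and without CD62Llo PSGL1lo replicate 2 (bottom). Filled red points were called, open points were not, and black lines are medians. Called probe sets number 1, 0 and 10 in the top row and 16, 12 and 44 in the bottom row.

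Other mitochondrial lists were low in the same array, and so were some lists that are not mitochondrial. The median log2 ratio of CD62Llo PSGL1lo replicate 2 was -0.15 for 70 probe sets of respiratory complex assembly factors, -0.21 for 152 of mitochondrial ribosomal proteins, -0.16 for 46 of the tricarboxylic acid cycle and pyruvate entry, and -0.22 for 41 of mitochondrial carriers. It was -0.38 for 101 probe sets of cytosolic ribosomal proteins, a list added after the values were seen, and -0.40 for 77 of the cell cycle. Over the lists of cell type markers it ran from -0.23 (macrophage, monocyte and neutrophil) to -0.01 (stroma and endothelium). For 47 glycolysis probe sets the 3 CD62Llo PSGL1lo arrays had medians of 0.70, 0.03 and 0.48, against -0.25 to -0.23 in naive arrays. Over all probe sets the array's median was -0.05.

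**Figure D5:**
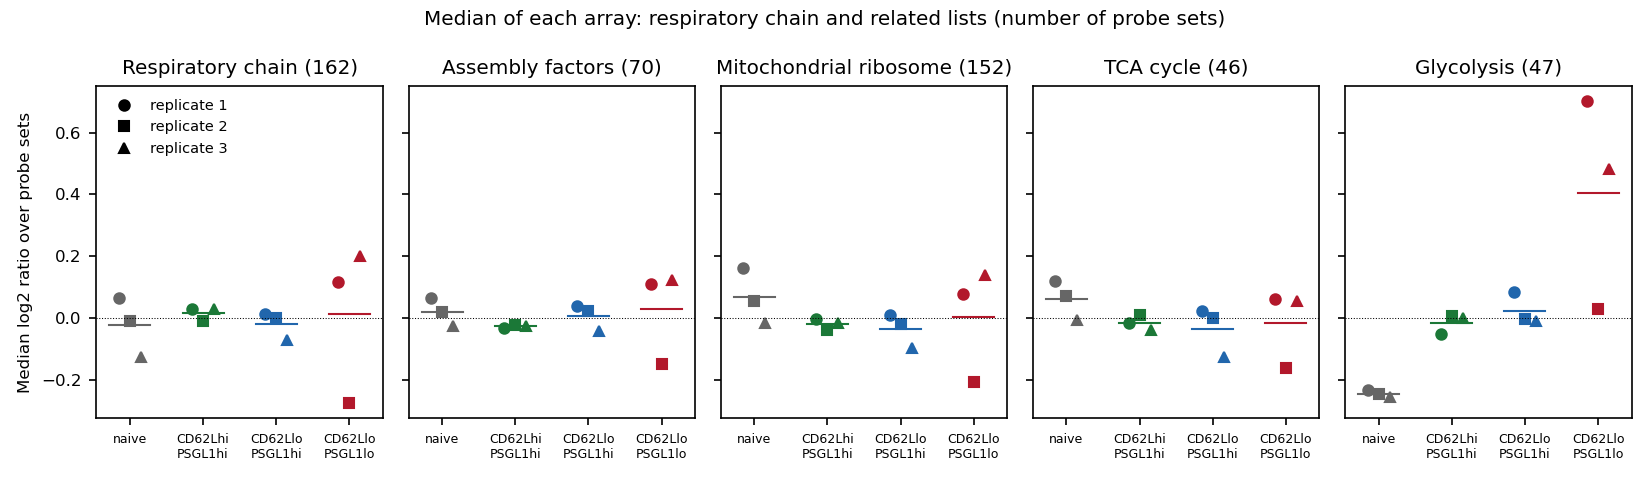
Median log2 ratio over the probe sets of 5 lists (y axis) on each of 12 arrays, by population (x axis), with the number of probe sets in each title. Symbols are the 3 replicates and lines the mean of the array medians. CD62Llo PSGL1lo replicate 2 is the lowest array for the respiratory chain (-0.28), assembly factors (-0.15), the mitochondrial ribosome (-0.21) and the TCA cycle (-0.16), and glycolysis medians are lowest in naive arrays.

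Markers and array controls are given here, whether or not they moved with population, and their part in the results was not tested. The 5′ and 3′ probe sets of the Gapdh control give a relative measure of RNA length, and the 3′ minus 5′ log2 value was 0.30 to 0.41 in naive arrays and -0.45 to -0.14 in CD62Llo PSGL1lo arrays, with -0.14 in replicate 2. The beta-actin control gave -0.08 to 0.07 in naive and -0.06 to 0.06 in CD62Llo PSGL1lo arrays, which overlap. It was highest in CD62Lhi PSGL1hi replicate 1, at 0.39, with the other PSGL1hi arrays at -0.02 to 0.03. That array was also the highest in the transferrin receptor control, at 0.38. The transferrin receptor control went the other way from Gapdh, at -0.35 to -0.02 in naive and 0.15 to 0.38 in CD62Lhi PSGL1hi arrays, with -0.26 to 0.07 in CD62Llo PSGL1lo arrays. For pyruvate carboxylase it was 0.09 to 0.52 in CD62Llo PSGL1lo, -0.16 to 0.03 in PSGL1hi and -0.20 to 0.11 in naive arrays. Of 13 plasma cell probe sets 6 to 8 were called higher in each CD44+ population than in naive cells, covering 3 to 5 genes. Their array medians were -0.51 to -0.23 in naive and -0.07 to 0.28 in CD44+ arrays. The next counts are in the order CD62Lhi PSGL1hi, CD62Llo PSGL1hi and CD62Llo PSGL1lo, each against naive cells. Of 29 B cell probe sets 9, 9 and 8 were called higher and 1, 3 and 6 lower. These calls covered 4, 6 and 7 genes, while array medians of that list lay between -0.03 and 0.05. Over all probe sets 8.6%, 9.1% and 9.53% were called higher and 8.66%, 8.16% and 10.6% lower. In the same order 2, 6 and 5 of 16 CD4 T cell probe sets were called higher and 1, 2 and 3 lower, 1, 1 and 2 of 22 macrophage, monocyte and neutrophil probe sets higher and 3, 5 and 6 lower, and 1, 1 and 0 of 12 NK and CD8 T cell probe sets higher and 3 lower in each. Of 10 dendritic, 9 erythroid and platelet and 17 stroma and endothelium probe sets at most 3 were called in any of these comparisons. Ratios do not show which markers are at background, so absent cell types could not be listed.

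Genes around the respiratory chain were tested in the same fit. The F test called 25.7% of assembly factor probe sets, 23.9% of those of the tricarboxylic acid cycle and pyruvate entry, 26% of mitochondrial biogenesis regulators, 14.6% of mitochondrial carriers and 9.21% of mitochondrial ribosomal proteins, against 23.7% of all. It called 68.1% of glycolysis and 67.5% of cell cycle probe sets. The members' share was 4.94% with all arrays and 25.9% without CD62Llo PSGL1lo replicate 2. The F test shares of these lists without that array were not computed, and no difference between shares was tested. With all arrays, 24 of 47 glycolysis probe sets were higher and 4 lower in CD62Llo PSGL1lo than in naive cells. For assembly factors 10 of 70 were higher and 7 lower, and for mitochondrial ribosomal proteins 4 and 6 of 152. Over all probe sets 9.53% were higher and 10.6% lower. Without CD62Llo PSGL1lo replicate 2 the counts were 32 and 3, 19 and 6, and 17 and 6 in this order, against 11% and 9.19% of all.

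In each list the called genes with the smallest F p-values are given, as differences from naive cells unless another population is named. Cox10, which makes heme for complex IV, fell by 0.85, 0.76 and 0.72 in 1429329_at in CD62Lhi PSGL1hi, CD62Llo PSGL1hi and CD62Llo PSGL1lo cells, and Ndufaf4, a complex I assembly factor, by 0.97, 0.79 and 0.76 in 1435333_at (limma, adjusted p = 2.94e-04 and 4.00e-04 in the last population). Sdhaf1, an assembly factor of complex II, rose by 0.90 in CD62Llo PSGL1lo cells against naive cells and by 0.49 against CD62Llo PSGL1hi cells (limma, adjusted p = 1.16e-04 and 0.0282). Pdk1, a kinase that holds pyruvate out of the cycle, differed by -2.26, -2.30 and -1.50 in 1435836_at, and Pdk3, a relative, rose by 0.84 to 1.24. Pdha1, part of the enzyme that these kinases target, fell by 0.66 to 0.91 in 1449137_at. Of subunits outside the rule, Atpif1, the inhibitor of the ATP synthase, rose by 0.88 to 1.31 in 1 of 3 probe sets, 1448770_a_at.

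Among regulators Myc fell by 1.06 to 1.63 in the 3 CD44+ populations, Pprc1, a coactivator of the NRF1 pathway, by 0.54 to 0.80, and Tfb1m, a mitochondrial rRNA methyltransferase, rose in CD62Llo PSGL1lo cells by 0.58 in 1435924_at. The mitochondrial ribosomal gene Mrps6 rose by 1.01 to 1.49 in 1424440_at, Mrpl51 fell in CD62Lhi PSGL1hi and CD62Llo PSGL1lo cells by 0.54 and 0.52 in 1 of 3 probe sets, 1416879_at, and Mrps18b fell by 0.66 and 0.64 in the PSGL1hi populations. Of the aspartate and glutamate carriers Slc25a12 fell by 0.92 to 1.31 in 1436440_at and Slc25a13 rose by 0.80 to 1.23, and Ppif, the cyclophilin of the permeability pore, fell by 0.37 to 0.51 in 1416940_at. Hif1a, the oxygen-sensing regulator of glycolytic genes, rose by 1.34, 1.81 and 3.58 in 1448183_a_at, and the glycolytic enzyme Tpi1 by 1.15, 1.06 and 2.50 in 1415918_a_at. The glucose transporter Slc2a3 rose by 0.60 and 0.71 in the PSGL1hi populations and fell by 0.88 in CD62Llo PSGL1lo cells in 1437052_s_at. The cell cycle gene Mki67 rose by 1.71 in CD62Lhi PSGL1hi cells, Cdc6 by 1.66, and Mcm6 rose by 1.00 to 1.37 in the 3 CD44+ populations in 1416251_at. Where a probe set is named, the gene has others, and some of them were not called. The differences of those others are not given here, so a named difference stands for 1 probe set and not for the gene. All differences given for these lists are from the fit with all arrays, CD62Llo PSGL1lo replicate 2 included.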

How the data were processed

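RNA of 4 sorted populations, 3 arrays each, was measured on Affymetrix arrays for the mouse genome. Signals were computed with MAS5, per the submitters' processing notes (version not given in the sources used here), and the deposited values are a ratio of each signal to that probe set's median over the 12 arrays: in 99.7% of probe sets the median lay within 0.002 of 1. The division removes brightness, so no filter on dim probe sets was possible.

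The log2 ratios of 45037 probe sets, with 64 array controls left out, were fitted with limma 3.58.1 in R 4.3.3, 1 mean per population, and p-values were adjusted over all of them (Benjamini-Hochberg, called under 0.05, two-sided). Residual and prior degrees of freedom were 8 and 5.54. The fit was tested on simulated data. Symbols come from the platform annotation (34945 probe sets with 1 symbol, 932 with several, 9160 not listed).

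The members, gene lists and markers were chosen with earlier results of these data known. Named genes are, per comparison, up to 5 called rises and 5 falls with groups that do not overlap, the core subunits and paralog sets, and up to 3 called genes per list with the smallest F p. Ndufa5, Ndufc1, Cox5a, Cox5b, Atp5e and Atp5o, and the promoters printed, were chosen after their values were seen. Same-numbered CD44+ arrays deviated together (correlation 0.138 to 0.451 over all probe sets, 3 pairs in each of 3 comparisons), and naive arrays did not pair with them (-0.0817 to 0.157). The alternatives were other scalings, a pseudocount of 0.1, a filter on SDs above 0.5, 1 probe set per gene, suffixed probe sets left out, the replicate block, a robust prior, 2-population fits and each array left out.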

Additional observations from a re-analysis of the deposited data

How the results depend on the processing

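Counts of called members rest on 12 arrays and a median standard error of 0.14, which limits how small a difference these arrays resolve. No called difference of a member changed sign under any alternative run. Of 23 calls, 12 held under every scaling, pseudocount, filter, prior, block and 2-population alternative, and 7 held without any single array. Among counts that moved, the F test gave 8 members, with 4 after quantile normalization, 3 with 1 probe set per gene and 5 without suffixed probe sets. In the order CD62Llo PSGL1lo against CD62Llo PSGL1hi, CD62Lhi PSGL1hi against naive, CD62Llo PSGL1hi against naive and CD62Llo PSGL1lo against naive, the counts of 1, 7, 5 and 10 became 2, 4, 2 and 5 with 1 probe set per gene, where fewer probe sets are tested. With only the 2 populations in the fit the first 3 became 0, 13 and 17. Quantile normalization gave 2 for CD62Lhi PSGL1hi against naive, and leaving out suffixed probe sets gave 4 for CD62Llo PSGL1lo against naive. Scaling each array by its median gave 1 where CD62Llo PSGL1lo against CD62Lhi PSGL1hi had 0. Other than the fewer probe sets, the cause was not tested. A setting can also change the calls over all probe sets, and those shares are given only for some settings. The moves are therefore not read as particular to the members.

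Without 1 array at a time the counts ran from 2 to 42 for the F test, 0 to 16, 0 to 12, 2 to 22, 3 to 12 and 5 to 44 for CD62Llo PSGL1lo against CD62Llo PSGL1hi and CD62Lhi PSGL1hi, and for CD62Lhi PSGL1hi, CD62Llo PSGL1hi and CD62Llo PSGL1lo against naive. Every highest count came without CD62Llo PSGL1lo replicate 2. Of all probe sets 25.8%, 8.95%, 11.7%, 19.7%, 20.2% and 20.2% were then called, against 23.7%, 8.38%, 11.6%, 17.3%, 17.3% and 20.1% with all arrays. The member medians of CD62Llo PSGL1lo cells ran from -0.059 to 0.19 against CD62Llo PSGL1hi, -0.087 to 0.14 against CD62Lhi PSGL1hi and -0.075 to 0.18 against naive cells, lowest without replicate 3 and highest without replicate 2 of that population.

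The replicate number was also used as a block in the 9 CD44+ arrays. CD62Llo PSGL1lo cells then had 2 called members against CD62Llo PSGL1hi cells (10.6% of all probe sets) and 5 against CD62Lhi PSGL1hi cells (14.8%). With the block in all 12 arrays, where naive numbers do not pair, these were 2 and 5, the F test gave 16, and the counts against naive cells were 17, 8 and 16 for CD62Lhi PSGL1hi, CD62Llo PSGL1hi and CD62Llo PSGL1lo. The shares of all probe sets with the block in 12 arrays are not given here. The 2-population fit was not run for the F test.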
